A study of Mus musculus with 9 samples.

Results

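The MHC class I and antigen processing genes examined here are B2m, H2-K1, H2-D1, Tap1, Tap2, Tapbp, Psmb8, Psmb9, Psmb10 and Nlrc5. They were chosen by name, and all 10 were found among the 46095 gene symbols of a count table of colon intestinal epithelial cells (IECs). Of the 10, 8 passed the filter on low counts that left 14593 genes for testing. The table held 4 libraries of the Smad4-knockout genotype and 5 of the Smad4-knockout;Setd2-knockout genotype, called double-knockout below. Floxed alleles were removed by Villin-Cre, which acts in the intestinal epithelium, so all 9 libraries carried the Smad4 deletion and neither a wild-type nor a Setd2-only group was compared. The mice, on a C57BL/6j background, received the carcinogen azoxymethane (AOM, 10 mg/kg) at 8 weeks of age, then 1 course of the colitis-inducing agent dextran sodium sulphate (DSS, 2%) in the drinking water, and IECs were released with EDTA at 10 days of AOM/DSS. SETD2 is the methyltransferase that places trimethylation on lysine 36 of histone H3, and SMAD4 transmits TGF-beta signals.

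MHC class I molecules carry peptides of cytosolic proteins to the cell surface for inspection by CD8 T cells. Proteasomes cut the peptides, the TAP transporter moves them into the endoplasmic reticulum, and a loading complex places them on a heavy chain paired with beta-2-microglobulin. Interferon raises most genes of this pathway in epithelial cells, and NLRC5 is the transactivator that acts at class I promoters with the RFX, CREB/ATF and NF-Y factors.

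Stretches of 3 member promoters are shown because the X2 and Y elements of class I genes, at which CREB/ATF and NF-Y bind, lie there at a fixed spacing. RefSeq promoter windows of GRCm38.p6, running from 250 bases before to 50 after a transcript start, were matched by symbol for 8 of the 10 members. The letters TGACG (X2 core), ATTGG (Y core) and an interferon response core (GAAA, any 2 bases, GAAA) were searched on both strands, and capitals mark the X2 and Y pair and the interferon core. The stretches are B2m at chr2:122147509-122147648 (plus strand), H2-K1 at chr17:34000349-34000488 (minus strand) and H2-D1 at chr17:35262893-35263032 (plus strand), each 140 bases.
B2m: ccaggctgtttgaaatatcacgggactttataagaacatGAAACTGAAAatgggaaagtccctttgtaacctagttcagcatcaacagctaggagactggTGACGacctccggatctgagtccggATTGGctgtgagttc
H2-K1: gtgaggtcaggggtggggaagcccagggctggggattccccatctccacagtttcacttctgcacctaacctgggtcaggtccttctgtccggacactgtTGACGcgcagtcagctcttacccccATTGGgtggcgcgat
H2-D1: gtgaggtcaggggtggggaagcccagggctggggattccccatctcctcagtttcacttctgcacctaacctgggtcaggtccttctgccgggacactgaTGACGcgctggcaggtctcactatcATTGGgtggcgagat
In B2m, H2-K1 and H2-D1 the TGACG letters were followed by ATTGG after 20 bases. A pair with a gap of 15 to 25 bases occurred in 143 of 32544 promoters (0.439%), against 20.9% of promoters for TGACG alone and 37.4% for ATTGG alone. The exact letters of the interferon core, found in 3.45% of promoters, occurred in B2m and in none of the other 7 member promoters. Forms of this element with other letters were not searched, so their absence from H2-K1, H2-D1 or other members is not shown. The H2-K1 and H2-D1 stretches matched at 128 of 140 positions (91.4%). Tap1 and Psmb9 lie head to head with starts 226 bases apart, so their windows shared 275 bases. These matches describe letters only.

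Library totals were 12487129 to 17120202 counts, so that 1 count was worth 0.0593 to 0.0793 CPM. All levels are CPM, that is counts scaled to a common library size after TMM normalization. Setd2 fell from 113 ± 9.44 CPM (SD, n = 4) to 66.0 ± 14.7 (n = 5), without overlap (log2 fold change -0.77, SE 0.14, edgeR quasi-likelihood adjusted p = 0.00756). Smad4, deleted in both groups, was at 64.1 ± 19.0 and 70.2 ± 34.3 CPM (adjusted p = 0.819). Y-linked counts (Ddx3y, Eif2s3y, Uty and Kdm5d) summed to 4907, 4745 and 3857 in double-knockout replicates 1, 2 and 5, to 28 and 0 in replicates 3 and 4, and to 0 or 1 in the Smad4-knockout libraries. The results of the members that could be tested there are therefore also given for the 6 libraries without Y-linked counts above 100, that is 4 Smad4-knockout libraries against double-knockout replicates 3 and 4. The remaining 3 libraries were all double-knockout and gave no comparison of their own.

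Marker genes were read for the cells the preparation could hold. The 8 epithelial markers (Epcam, Cdh1, keratins, Vil1, Cldn7) summed to 12784 to 14736 CPM in Smad4-knockout and 12146 to 14375 in double-knockout libraries, and none of the 8 was called. The 24 leukocyte markers summed to 115, 134, 110 and 256 CPM in Smad4-knockout replicates 1 to 4 and to 249, 283, 211, 281 and 90.8 in double-knockout replicates 1 to 5. Of the 22 tested, Gzma (log2 fold change 1.77, adjusted p = 0.0187) and Gzmb (1.94, adjusted p = 0.0364), granzymes of cytotoxic lymphocytes, were higher in double-knockout IECs. Leaving out single libraries ended the Gzma call in 2 of 9 cases and the Gzmb call in 7 of 9. The T cell receptor genes Trac and Trdc had at most 2 and 5 counts in any library. The other T cell genes of the list had more, with 21 to 81 counts for Cd3d, 25 to 92 for Cd3e and 44 to 142 for Cd3g. Cd4 had 11 to 47 counts, Cd8a 64 to 420 and Cd8b1 6 to 85. Of 9 tested small intestinal enterocyte markers, 6 were higher in double-knockout IECs, and of 7 colonocyte markers 2 were lower, among them Muc2, the secreted mucin of goblet cells, which that list also holds (-1.62, adjusted p = 0.000542). In such bulk samples, more cells of a type and more RNA per cell cannot be told apart.

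No member differed between the genotypes at an adjusted p under 0.05 when all 9 libraries were fitted, and for B2m, H2-K1, Tap1, Tap2, Tapbp, Psmb10 and Nlrc5 the double-knockout libraries spread to both sides of the Smad4-knockout range. Values outside that range were common. Double-knockout replicates 1 to 5 were above every Smad4-knockout library for 35.6%, 33.7%, 30.3%, 31% and 26.5% of all tested genes. They were below every one for 36.8%, 35.1%, 32.6%, 32.5% and 27.2%. Of the 8 members tested, 0 were called in either direction, where 6.76% of all tested genes were called higher and 6.54% lower. At an unadjusted p under 0.05 the count was 0 as well, with edgeR, DESeq2 and limma-voom. By edgeR it was 1 of 8 with a term for Y-linked counts, 1 of 9 without the filter and 4 of 7 without the Y-linked libraries. It was 0 to 2 when single libraries were left out. The share of all tested genes at this threshold is not given here. Log2 fold changes were positive for 7 of the 8, with a median of 0.42, beside -0.00 over all tested genes. This tally turned with the libraries used: 1 of 8 was positive with a term for Y-linked counts (median -0.60, beside -0.01 over all tested genes), and 1 of 7 without the Y-linked libraries (median -0.43, beside -0.00). The Y-linked libraries, replicates 1, 2 and 5, were all double-knockout. Both fits therefore set double-knockout replicates 3 and 4 against the Smad4-knockout libraries, and their near-equal values follow from the design.

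B2m encodes beta-2-microglobulin, the light chain shared by all class I molecules. It was at 1151, 1005, 998 and 1065 CPM in Smad4-knockout replicates 1 to 4 and at 1369, 2230, 831, 728 and 1323 CPM in double-knockout replicates 1 to 5. Double-knockout replicates 1, 2 and 5 were above every Smad4-knockout library and replicates 3 and 4 were below every one. The means were 1055 ± 70.7 CPM (n = 4) and 1296 ± 595 (n = 5), with a log2 fold change of 0.30 (SE 0.27, edgeR adjusted p = 0.490). In the 6 libraries without Y-linked counts, B2m was lower in the double-knockout libraries (log2 fold change -0.43, SE 0.10, adjusted p = 0.0191).

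**Figure D1:**
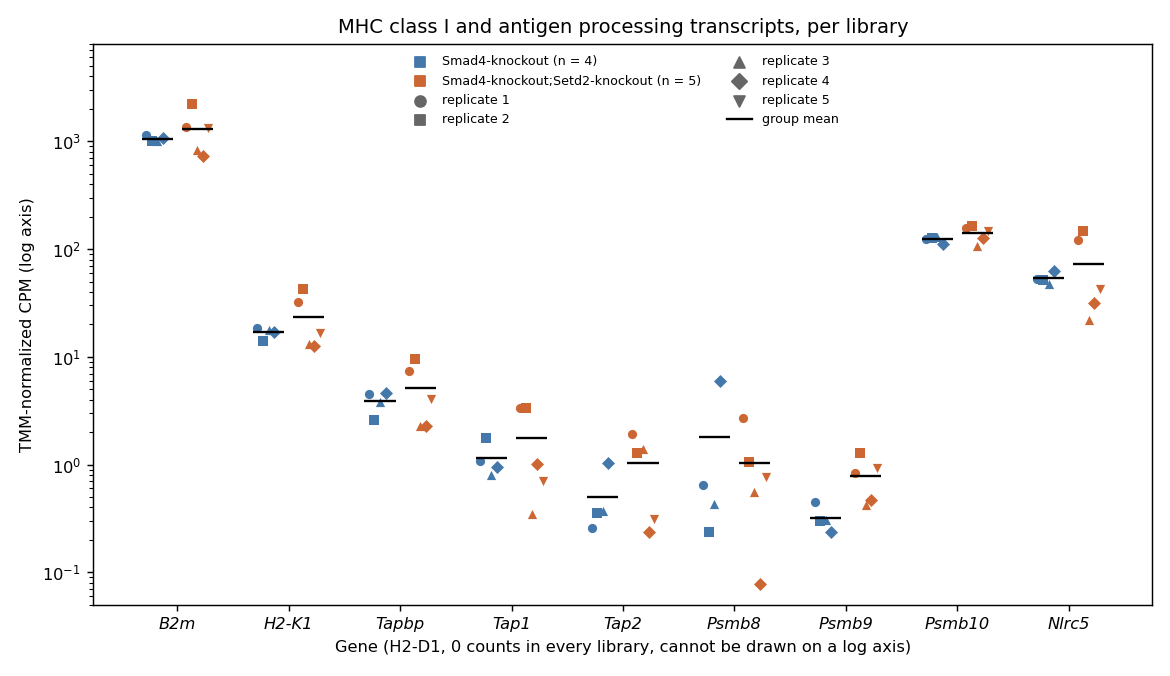
Levels of 9 class I and antigen processing transcripts in each library, as TMM-normalized CPM on a log axis. Symbols mark replicate numbers, colours the genotype (4 Smad4-knockout, 5 double-knockout) and black lines the group means. For B2m, H2-K1, Tapbp and Nlrc5, double-knockout replicates 1 and 2 lie above and replicates 3 and 4 below all Smad4-knockout libraries.

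H2-K1 and H2-D1 encode the classical heavy chains, which hold the peptide. H2-K1 was at 18.6, 14.1, 17.8 and 16.96 CPM in the Smad4-knockout libraries and at 32.2, 42.8, 13.2, 12.6 and 16.5 CPM in double-knockout replicates 1 to 5. Replicates 1 and 2 again stood above and replicates 3 and 4 below all Smad4-knockout libraries, while replicate 5 fell among them. The means of 16.9 ± 1.97 (n = 4) and 23.5 ± 13.4 CPM (n = 5) gave a log2 fold change of 0.48 (SE 0.35, edgeR adjusted p = 0.374), against -0.39 (SE 0.15, adjusted p = 0.0986) without the Y-linked libraries. H2-D1 was listed at 0 counts in all 9 libraries, which allows at most 0.178 to 0.238 CPM per library at 3 counts and covers counting error only. Within a library, H2-K1 counts were 1.40% to 1.79% of the B2m counts in Smad4-knockout and 1.25% to 2.36% in double-knockout IECs. The mean log2 ratio differed by 0.12 (two-sided exact permutation test, p = 0.556, adjusted p over 5 ratios = 0.675).

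Tap1 and Tap2 form the peptide transporter, and both had few counts. Tap1 was at 1.09, 1.78, 0.797 and 0.951 CPM in Smad4-knockout and at 3.33, 3.34, 0.349, 1.02 and 0.697 CPM in double-knockout libraries, from 5 to 52 counts. Double-knockout replicates 1 and 2 were above every Smad4-knockout library, and replicates 3 and 5 were below every one. The log2 fold change was 0.60 (SE 0.61, edgeR adjusted p = 0.531) over 9 libraries and -0.77 (SE 0.54, adjusted p = 0.347) without the Y-linked libraries. Tap2 rested on 4, 6, 6 and 13 counts in Smad4-knockout and on 30, 18, 20, 3 and 4 counts in double-knockout libraries. Its double-knockout replicates 1, 2 and 3 were the highest of all libraries, and the log2 fold change was 1.08 (SE 0.64, adjusted p = 0.275), against 0.77 (SE 0.74, adjusted p = 0.492) without the Y-linked libraries.

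Tapbp encodes tapasin, which bridges TAP and the empty heavy chain. Its levels were 4.55, 2.61, 3.80 and 4.597 CPM in Smad4-knockout and 7.36, 9.52, 2.30, 2.28 and 4.03 CPM in double-knockout libraries, the same arrangement of replicates as for H2-K1. The log2 fold change was 0.40 (SE 0.43, edgeR adjusted p = 0.559) over 9 libraries and -0.75 (SE 0.31, adjusted p = 0.114) without the Y-linked libraries.

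Psmb8, Psmb9 and Psmb10 encode the catalytic subunits that replace Psmb5, Psmb6 and Psmb7 in the immunoproteasome. Psmb10 was the only one with more than 75 counts in a library. It was at 124, 126.4, 129 and 112 CPM in Smad4-knockout and at 158, 165, 106, 126.3 and 147 CPM in double-knockout libraries. Double-knockout replicates 1, 2 and 5 were above every Smad4-knockout library, replicate 3 was below every one, and replicate 4 lay within their range. The means of 123 ± 7.67 (n = 4) and 141 ± 24.2 (n = 5) CPM gave a log2 fold change of 0.19 (SE 0.12, edgeR adjusted p = 0.312), against -0.08 (SE 0.10, adjusted p = 0.608) without the Y-linked libraries.

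The log2 ratio of Psmb10 to Psmb7 counts was 0.34, 0.31, 0.30 and 0.25 in Smad4-knockout and 0.57, 0.64, -0.03, 0.17 and 0.48 in double-knockout libraries. Its mean differed by 0.06 (two-sided exact permutation test, p = 0.675, adjusted p = 0.675), with all 5 double-knockout values outside the Smad4-knockout range, 3 above and 2 below.

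Psmb8 had 10, 4, 7 and 75 counts in Smad4-knockout and 42, 15, 8, 1 and 10 counts in double-knockout libraries. Smad4-knockout replicate 4 alone held the highest level, 5.94 CPM, and the log2 fold change of -0.74 (SE 0.95, edgeR adjusted p = 0.631) became 1.25 (adjusted p = 0.337) without it. That library also had 63.6 CPM of the myeloid gene Lyz2, against 4.55 to 9.37 CPM in the other Smad4-knockout libraries, and the part of myeloid cells in its Psmb8 counts was not tested. Psmb9 had 7, 5, 5 and 3 counts in Smad4-knockout and 13, 18, 6, 6 and 12 in double-knockout libraries and did not pass the filter. Fitted without the filter, its log2 fold change was 1.24 (SE 0.49, unadjusted p = 0.0228, adjusted p = 0.153). The ratios of Psmb8 to Psmb5, Psmb9 to Psmb6 and Tap1 to Psmb9 differed by -0.67, 0.68 and -0.96 on the log2 scale, with adjusted p = 0.675, 0.635 and 0.635 by the exact permutation test.

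Nlrc5 encodes the class I transactivator. It was at 53.0, 51.9, 47.6 and 62.3 CPM in Smad4-knockout replicates 1 to 4 and at 120.6, 148, 21.8, 31.5 and 42.4 CPM in double-knockout replicates 1 to 5. Replicates 1 and 2 were above every Smad4-knockout library and replicates 3, 4 and 5 below every one, a 6.78-fold span within the double-knockout group. The means were 53.7 ± 6.20 (n = 4) and 72.9 ± 57.4 (n = 5) CPM, with a log2 fold change of 0.44 (SE 0.49, edgeR adjusted p = 0.573). Without the Y-linked libraries Nlrc5 was lower in double-knockout IECs (log2 fold change -1.01, SE 0.16, adjusted p = 0.00297). In that fit 2 of 7 tested members, B2m and Nlrc5, were lower and none was higher, where 1524 of 15138 tested genes were lower and 1406 higher (19.4% called in all). With all 9 libraries and a term for Y-linked counts, the log2 fold changes were -0.44 (adjusted p = 0.202) for B2m and -1.01 (adjusted p = 0.141) for Nlrc5, and 0 members were called, where 4.47% of genes were called higher and 4.33% lower. The genotype difference of this fit again rests on double-knockout replicates 3 and 4.

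**Figure D2:**
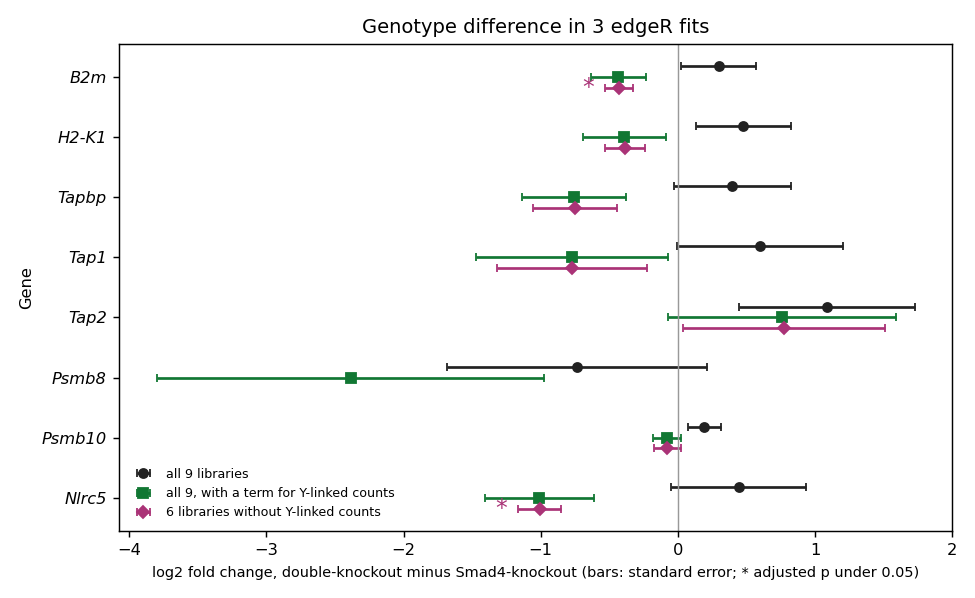
Log2 fold change, double-knockout minus Smad4-knockout, of the tested members in 3 edgeR fits, with bars of 1 standard error. With all 9 libraries 7 of 8 values lie above 0 and none is called, whereas with the 6 libraries without Y-linked counts the values of B2m (-0.43) and Nlrc5 (-1.01) lie below 0 at an adjusted p under 0.05 (asterisks), and Psmb8 was not tested there.

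The 4 members with more than 100 counts in every library spread more widely within the double-knockout group. The coefficient of variation of B2m was 6.70% over the Smad4-knockout and 45.9% over the double-knockout libraries. For H2-K1 it was 11.7% and 57.3%, for Nlrc5 11.5% and 78.8%, and for Psmb10 6.24% and 17.2%, beside medians of 11.1% and 17.8% over all tested genes. The median log2 deviation of the 8 tested members from the Smad4-knockout mean was 1.05, 1.29, -0.44, -0.59 and -0.08 in double-knockout replicates 1 to 5. B2m, H2-K1, Tapbp and Nlrc5 had replicates 1 and 2 above and replicates 3 and 4 below every Smad4-knockout library. This arrangement, picked after the values were seen, occurred in 2.04% of all tested genes. The leukocyte marker sums of the double-knockout libraries, 249, 283, 211, 281 and 90.8 CPM, varied as well, and their part in the spread was not tested.

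Other transcripts with the same arrangement were 5 of 8 tested class I heavy chains (H2-Q4, H2-Q5, H2-T10, H2-T22 and H2-T23), 18 of 30 interferon-stimulated genes and 4 of 6 MHC class II pathway genes. It was found in 3 of 17 class I regulators (Irf9, Stat2 and Setd1a) and in 0 of 14 constitutive proteasome genes and 0 of 22 leukocyte markers. The median deviations of the interferon-stimulated genes in double-knockout replicates 1 to 5 were 1.74, 2.07, -0.54, -0.25 and 0.40.

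**Figure D3:**
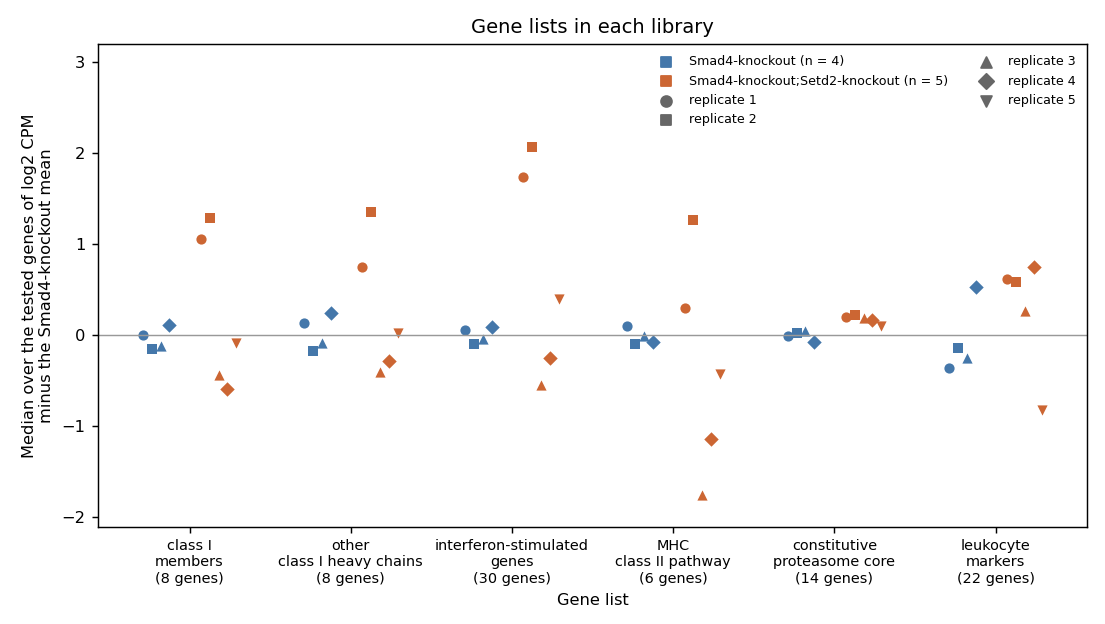
Median log2 deviation from the Smad4-knockout mean for 6 gene lists in each library, 1 symbol per library, with colours for genotype. Double-knockout replicates 1 and 2 are high and replicates 3 and 4 low for the class I members (1.05 and 1.29 against -0.44 and -0.59), the other heavy chains and the interferon-stimulated genes, whereas all double-knockout libraries lie within a narrow band for the constitutive proteasome.

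By a measure of likeness over the 9 libraries, the 10 genes whose log2 CPM followed the mean standardized level of the 9 members with counts most closely were Asap1, Mitd1, Ddx58, Sp100, Phf11d, Gbp3, Papd4, Slfn2, Xaf1 and H2-T22. Their Pearson r was 0.979 to 0.991 among 13714 candidate genes. The 9 points share the libraries and their scaling, and no test was made. Ddx58 encodes the RNA sensor RIG-I, Gbp3 an interferon-induced GTPase and H2-T22 a class I heavy chain.

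Counts per length of exon in the Smad4-knockout libraries are given as listed. For the members on chromosome 17 they are not read as expression levels, since few counts were listed for most genes around them. B2m was at 1226 ± 82.2 CPM per kb, Psmb10 at 72.1 ± 4.50, Nlrc5 at 6.32 ± 0.730, H2-K1 at 5.75 ± 0.671, Tapbp at 1.07 ± 0.255, Psmb8 at 0.536 ± 0.816, Tap1 at 0.211 ± 0.0792, Tap2 at 0.133 ± 0.0940 and Psmb9 at 0.0881 ± 0.0244. Neighbours in this order from Nlrc5 to H2-K1 and from Tapbp to Psmb9 differed by less than their spread. The 3 members on other chromosomes followed the order B2m, Psmb10, Nlrc5, each apart by more than the spread.

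H2-K1, H2-D1, Tap1, Tap2, Tapbp, Psmb8 and Psmb9, 7 of the 10 members, lie on chromosome 17, in the MHC at GRCm38 positions 33915899 (Tapbp) to 35267499 (H2-D1), whereas B2m (chromosome 2) and Psmb10 and Nlrc5 (chromosome 8) lie elsewhere. Of 83 other protein-coding genes in this stretch, 5 (6.02%) averaged at least 100 counts and 31 (37.3%) had none in any library. The first share was 47.1% in the stretch of equal length before it, 31.2% after it and 46.7% over 20370 other protein-coding genes. Genes that most cells use were near 0 there, named after their values were seen: Brd2 had 4 to 12 counts, Csnk2b, Bag6 and Clic1 had 0, whereas Rps18 had 631 to 1267. At least 100 counts were reached by 4 to 6 of the 83 genes in Smad4-knockout and 5 to 7 in double-knockout libraries, so the scarcity was present in every library.

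For H2-D1, 14.3% of its 50-base windows occur in transcripts of other genes, for H2-K1 8.11%, for Tap2 12.6%, for Tapbp 21.0%, for Psmb8 4.95%, for Tap1 0.647% and for Psmb9 0%. Psmb6, on chromosome 11, also had only 6 to 29 counts. The level of Psmb6 is likewise given as listed, and the cause of the low counts was not tested. Tap1 and Psmb9 share 212 exonic bases, and whether counting used strand is not given in the sources used here. Comparisons between libraries of the 7 chromosome 17 members rest on the reads that were counted.

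**Figure D4:**
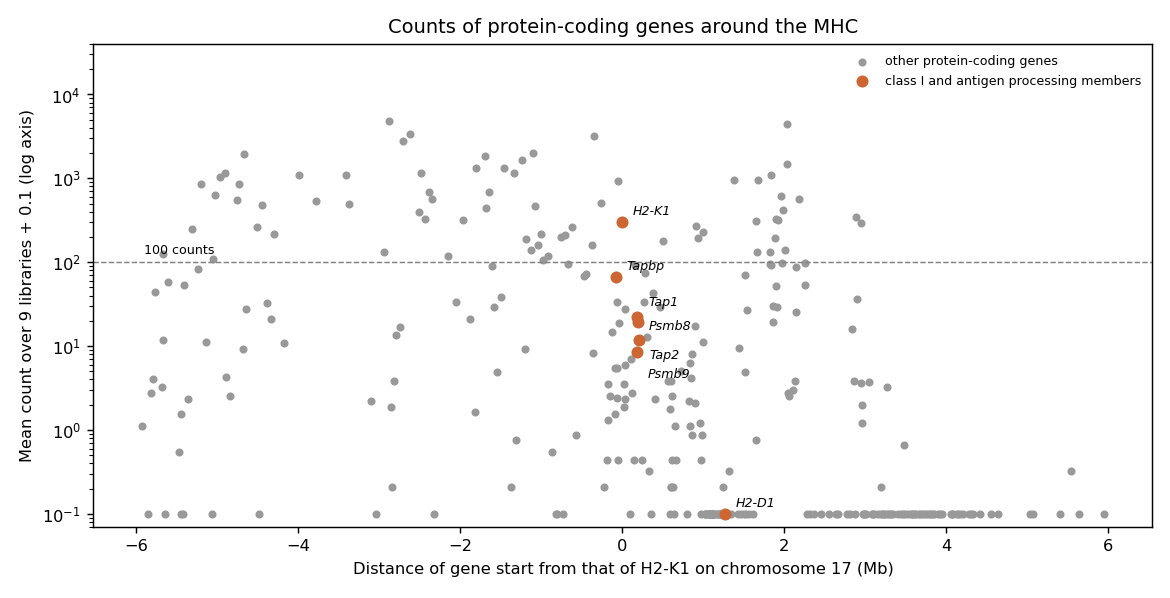
Mean count over the 9 libraries plus 0.1, on a log axis, of protein-coding genes within 6 Mb of H2-K1 on chromosome 17, against distance of the gene start. The 7 members (orange) lie in a stretch in which 5 of 83 other genes (grey) reach a mean of 100 counts (dashed line), and H2-D1 is at 0.

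Beyond the members, 72 genes of the class I pathway were tested, of which 7 were higher and 1 lower in double-knockout IECs, where 6.76% and 6.54% of all tested genes were. Over the 72 genes, 15 (20.8%) were higher and 2 (2.78%) lower without overlap between the genotypes, beside 8.34% and 8.87% of all tested genes. Those called came from peptide trimming, the constitutive proteasome, proteasome maturation and the regulators.

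Erap1, the aminopeptidase that trims peptides in the endoplasmic reticulum, was at 133, 146, 135 and 148 CPM in Smad4-knockout and at 200.3, 206, 191, 201 and 173 CPM in double-knockout libraries. All double-knockout libraries were higher, with a log2 fold change of 0.47 (SE 0.08, edgeR adjusted p = 0.00388) and of 0.49 (adjusted p = 0.00382) without the Y-linked libraries. With all 9 libraries Erap1 was the only 1 called of 12 peptide loading and trimming genes (median log2 fold change 0.02). The abundant chaperone genes Pdia3 (-0.01, adjusted p = 0.973), Calr (0.04, adjusted p = 0.862), Hsp90b1 (0.09, adjusted p = 0.644) and Hspa5 (-0.17, adjusted p = 0.275) were not called in that fit. Without the Y-linked libraries 2 of the 12 were higher (median 0.03), where 19.4% of all tested genes were called.

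Of the 14 constitutive proteasome core genes, 4 were higher and none lower, 13 had positive values and the median was 0.13. With a term for Y-linked counts 1 was called, with 12 positive values (median 0.14), where 4.47% of all tested genes were higher and 4.33% lower. Without the Y-linked libraries 3 were called, again with 12 positive (median 0.15), where 19.4% of all tested genes were called. Psmb5, the subunit that Psmb8 replaces, was at 24.1, 24.3, 24.2 and 25.04 CPM in Smad4-knockout and at 30.5, 26.6, 35.7, 36.7 and 33.8 CPM in double-knockout libraries. The rise of 0.42 on the log2 scale (SE 0.11, edgeR adjusted p = 0.0262) was 0.57 (adjusted p = 0.00308) without the Y-linked libraries. The alpha subunits Psma1 (0.30, adjusted p = 0.0187), Psma4 (0.26, adjusted p = 0.0373) and Psma6 (0.33, adjusted p = 0.0174) were also higher. Psma4 was not called without the Y-linked libraries (0.22, adjusted p = 0.0923). Leaving out single libraries gave adjusted p of up to 0.0779 for Psmb5 (call lost in 5 of 9 cases, namely without any of the Smad4-knockout libraries or double-knockout replicate 4), 0.0668 for Psma1 (lost in 2), 0.0549 for Psma6 (lost in 2) and 0.103 for Psma4 (lost in 6).

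Among 7 tested proteasome activators and maturation factors, the proteasome maturation protein gene Pomp was higher (0.34, SE 0.08, edgeR adjusted p = 0.0244), and also without the Y-linked libraries (0.39, adjusted p = 0.0285). The Pomp call was lost without Smad4-knockout replicate 1, 3 or 4, at adjusted p of up to 0.0702. The interferon-inducible activator subunits Psme1 and Psme2 had values of 0.28 (adjusted p = 0.128) and 0.23 (adjusted p = 0.0774). Both were higher in every double-knockout library than in any Smad4-knockout library.

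Of 17 class I transcriptional regulators, 1 was higher and 1 lower (median 0.07). Irf8, an interferon regulatory factor, was at 86.0, 117, 103 and 97.2 CPM in Smad4-knockout and at 175, 207, 135, 163 and 145 CPM in double-knockout libraries. All double-knockout libraries were higher (log2 fold change 0.72, SE 0.13, edgeR adjusted p = 0.00706). Rfxank, a subunit of the RFX complex with which NLRC5 acts, was at 34.5, 28.7, 28.1 and 26.9 CPM in Smad4-knockout and at 16.3, 18.5, 22.5, 17.7 and 25.8 CPM in double-knockout libraries. All double-knockout libraries were lower (-0.55, SE 0.14, adjusted p = 0.0303). Both calls held without the Y-linked libraries (Irf8 0.57, adjusted p = 0.0116, and Rfxank -0.55, adjusted p = 0.0279). The Rfxank call was lost with a term for Y-linked counts (adjusted p = 0.109) and in 7 of 9 cases when a single library was left out, namely any of the Smad4-knockout libraries or double-knockout replicate 1, 2 or 4 (adjusted p of up to 0.0959). The Irf8 and Erap1 calls held whichever library was left out, at adjusted p of up to 0.0267 and 0.0200. In the libraries without Y-linked counts 2 regulators were higher and 3 lower, where 19.4% of all tested genes were called. Besides Irf8, Nfyb, a subunit of NF-Y, was higher there (0.38, adjusted p = 0.0172). Irf9 (-0.44, adjusted p = 0.0225) and Stat2 (-0.48, adjusted p = 0.00978), partners in the factor that answers type I interferon, were lower as well. With a term for Y-linked counts Irf9 was called (adjusted p = 0.0447), and Stat2 (0.246) and Nfyb (0.0561) were not.

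**Figure D5:**
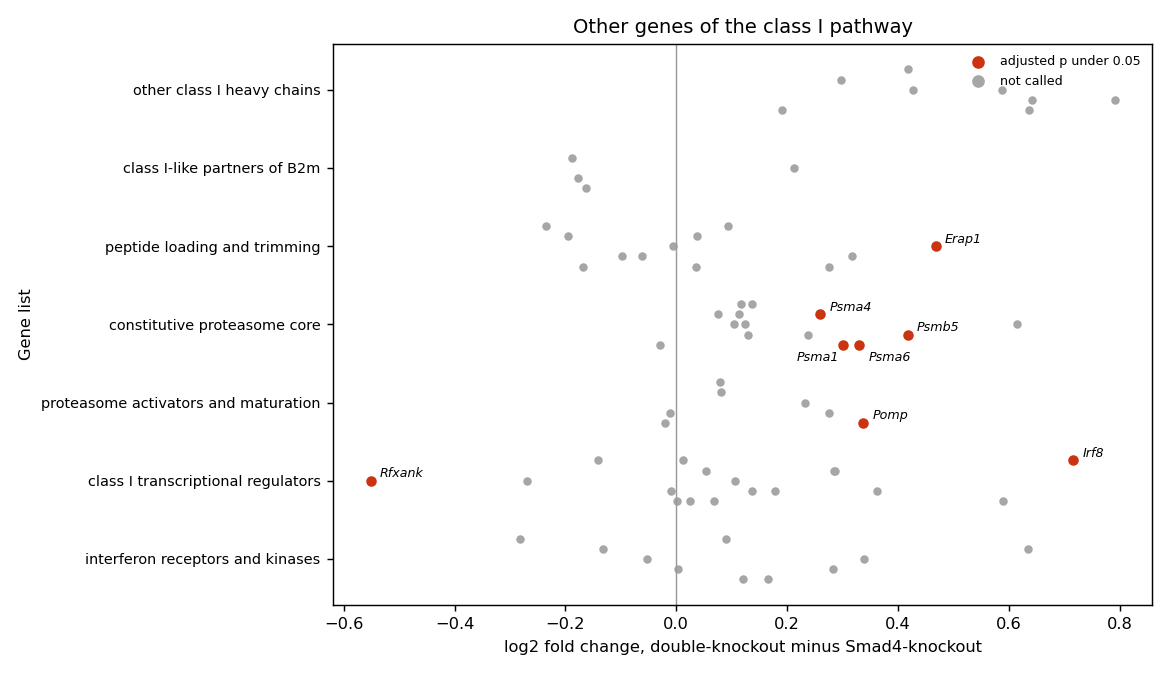
Log2 fold change, double-knockout minus Smad4-knockout, of the 72 other class I pathway genes by list, 1 point per gene, red where the edgeR adjusted p is under 0.05. Of the 14 constitutive proteasome core genes 13 lie above 0, and the only call below 0 is Rfxank at -0.55.

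Of 22 other class I heavy chain genes in the table, 11 had at most 3 counts in every library and 8 were tested. None of the 8 was called, all had positive values and the median was 0.51. Without the Y-linked libraries 2 of the 8 had positive values (median -0.34), as with a term for Y-linked counts (median -0.34). H2-T23, which presents leader peptides to natural killer cells, was at 318, 239, 294 and 289 CPM in Smad4-knockout and at 326, 528, 217, 228 and 327 CPM in double-knockout libraries (log2 fold change 0.19, SE 0.23, edgeR adjusted p = 0.607). H2-Q4 was at 46.7, 46.7, 46.8 and 57.4 CPM in Smad4-knockout and at 118, 162, 28.3, 33.1 and 43.6 CPM in double-knockout libraries (0.64, SE 0.47, adjusted p = 0.380). As for Nlrc5, its double-knockout replicates 1 and 2 were above and replicates 3, 4 and 5 below all Smad4-knockout libraries.

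Without the Y-linked libraries, H2-Q4 (-0.68, adjusted p = 0.00494) and H2-Q5 (-1.40, adjusted p = 0.00994) were lower in double-knockout IECs by the edgeR test, whereas H2-T3, which encodes the thymus leukaemia antigen, was higher (0.70, adjusted p = 0.0161). In that fit 19.4% of all tested genes were called. With all 9 libraries and a term for Y-linked counts none of the 3 was called, at adjusted p = 0.295 for H2-Q4, 0.0927 for H2-Q5 and 0.112 for H2-T3. H2-T3 had a value of 0.59 (adjusted p = 0.0770) over all 9 libraries. These heavy chains are near-identical in places, and the counting may have split reads between them.

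Of 4 tested class I-like partners of B2m none was called, 1 had a positive value (median -0.17), and Fcgrt, the neonatal Fc receptor, was at 54.2 ± 7.70 (n = 4) and 62.9 ± 9.90 (n = 5) CPM. Of 10 interferon receptor and kinase genes none was called, 7 had positive values (median 0.10), and the kinase gene Jak1 was at 171 ± 14.03 and 171 ± 6.39 CPM. Of 30 interferon-stimulated genes, Ifit1, Ifit2 and Ifit3 were higher in the fit of all 9 libraries and 0 lower (median 1.03). With a term for Y-linked counts 0 were higher and 2 lower (median -0.45). Without the Y-linked libraries, where 19.4% of all tested genes were called, 1 was higher and 13 lower (median -0.45). Of 6 tested MHC class II pathway genes, 0 were called in the first of these fits and 3 were lower in each of the others.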

How the data were processed

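RNA was extracted with Trizol from EDTA-isolated colon IECs of Smad4-knockout (n = 4) and double-knockout (n = 5) mice. The authors deposited raw whole-number counts per gene symbol, without normalization. The submitters' processing notes name HISAT2 2.0 and mm10. The counting program, annotation and use of strand are not given in the sources used here. Samples were grouped by the genotype label. The members and gene lists were chosen with earlier results of these data known. Dates stood in place of 27 symbols, which were tested without a name. Replicates of a genotype differed beyond sampling noise, and p-values set the genotype difference against the spread between these samples. The edgeR fit took a single spread per gene for both genotypes, although several members varied more among the double-knockout libraries.

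Genes were filtered with filterByExpr, scaled by TMM and tested with edgeR 4.0.16 (quasi-likelihood, two-sided, Benjamini-Hochberg over 14593 genes, threshold 0.05) in R 4.3.3, without covariates. DESeq2 1.42.0, limma 3.58.1 (voom), other scalings and filters, single libraries left out, a replicate block and the Y-linked libraries were alternatives. The tests were also run on simulated counts with a single spread for all genes and both genotypes. The wider spread of the double-knockout libraries was not simulated. Count ratios (0.5 added) were compared by exact permutation. The planned ratio of H2-D1 to B2m could not be computed, since H2-D1 had no count. All members are named, together with the called genes of the lists, otherwise up to 4 per list of highest CPM, and the 10 genes most alike. Trac, Trdc, Cd3d, Cd3e, Cd3g, Cd4, Cd8a, Cd8b1, Lyz2, Nfyb, Irf9, Stat2, Setd1a, H2-Q5 and H2-T10 fall outside this rule and were named after their values were seen. Positions and exon lengths came from GENCODE M21 (GRCm38). At these depths 3 counts correspond to 0.178 to 0.238 CPM.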

Additional observations from a re-analysis of the deposited data

Results flagged for a closer look

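In 56 comparisons of the highest or lowest library of a genotype with its nearest neighbour, 4 had a gap beyond Dixon's limit, where chance gives about 1 in 20. All 4 lay in the Smad4-knockout group. Psmb8 in replicate 4 (5.94 CPM against 0.237 to 0.641) had a gap of 0.929 of the group's range. Tap2 in replicate 4 (1.03 CPM against 0.256 to 0.368) had a gap of 0.856. H2-Q4 in replicate 4 (57.4 CPM against 46.7 to 46.8) had a gap of 0.986. Smad4 in replicate 1 (92.6 CPM against 54.2 to 55.3) had a gap of 0.970. On the log2 CPM scale, the gaps of H2-Q4 (0.984) and Smad4 (0.961) were still beyond the limit, whereas those of Psmb8 (0.738) and Tap2 (0.770) were not.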

How the results depend on the processing

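Signs of the members depended on the libraries used. With limma-voom and quality weights the log2 fold changes were -0.076 for B2m, -0.00 for H2-K1, -0.27 for Tap1, -0.16 for Tapbp and -0.40 for Nlrc5. With a term for Y-linked counts they were -0.44, -0.39, -0.77, -0.76 and -1.01, -0.081 for Psmb10 and -2.39 for Psmb8. With the libraries without Y-linked counts they were -0.43, -0.39, -0.77, -0.75 and -1.01, and -0.077 for Psmb10, with 2 members lower. That fit has double-knockout replicates 3 and 4 only, and the fit with the Y-linked term rests on the same contrast by design. Without single libraries Psmb8 ranged from -1.12 to 1.25 and Tap2 from 0.87 to 1.64, the highest of each without Smad4-knockout replicate 4. Each was tested in 6 of the 9 cases, since Tap2 did not pass the filter without double-knockout replicate 1, 2 or 3, nor Psmb8 without replicate 1, 2 or 5. Without double-knockout replicate 2 the values were 0.014 for B2m, 0.15 for H2-K1, 0.24 for Tap1, 0.051 for Tapbp, 0.019 for Nlrc5 and 0.13 for Psmb10. Without double-knockout replicate 1 they were 0.23 for Tap1, 0.23 for Tapbp and 0.19 for Nlrc5.

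Without single libraries, 455 to 1380 genes were higher and 392 to 1316 lower, 2 to 9 pathway genes were higher (2 without Smad4-knockout replicate 4, 3 without replicate 1 or 3) and 0 to 2 lower, and no member was called. Rfxank, the only lower pathway gene with all libraries, was lost in 7 of the 9. With the Y-linked term 653 genes were higher and 632 lower, and 4 pathway genes were higher. Without the Y-linked libraries 1524 genes and 5 pathway genes were lower, and voom gave 1523 lower genes. Pathway genes higher numbered 13 with DESeq2, 11 with voom, 4 without a filter, and 3 (0 lower) at a fold over 1.5 with an unadjusted p under 0.05.

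Leaving out libraries gave differences in log2 ratio of -1.21 to 0.27 for Psmb8 to Psmb5 (0.27 without Smad4-knockout replicate 4 and 0.02 without double-knockout replicate 4) and of -0.0049 (without double-knockout replicate 2) to 0.16 for Psmb10 to Psmb7. H2-K1 to B2m ranged from 0.0038 (without double-knockout replicate 1) to 0.23 (without replicate 5), Psmb9 to Psmb6 from 0.33 (without double-knockout replicate 5) to 0.97, and Tap1 to Psmb9 from -1.26 to -0.67. Without the Y-linked libraries Psmb8 to Psmb5 was -2.23, Psmb9 to Psmb6 -0.22 and Psmb10 to Psmb7 -0.23. The causes were not tested.

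Replicate numbers did not pair the samples. Deviations of same-numbered libraries correlated at -0.096 to 0.088, and 0 of 4 Smad4-knockout libraries correlated best with their own number. With the replicate block 0 members were called. Of the pathway genes 5 were higher (Erap1, Psma6 and Irf8, called without the block too, and H2-T3 and Jak2, which were not) and Rfxank lower, whereas Psmb5, Psma1, Psma4 and Pomp were not called (adjusted p of 0.0531 to 0.0864). The block gave 787 genes higher and 831 lower, and 0.12 for Psmb8. The low counts of Tap1, Tap2, Psmb8 and Psmb9, 1 to 75, limit what can be shown for these genes, and their cause was not tested.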
